A study of Mus musculus with 8 samples.

Results

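Cd3g, Pzp, Mal, Sash3 and Atp6v1b1 are 5 of the 20278 genes listed for mouse embryonic stem cells (ESCs) in 4 culture conditions, and all 5 were picked for large rises in a culture with 2i. Cd3g and Pzp rose in both 2i cultures, whereas Mal, Sash3 and Atp6v1b1 rose mainly in N2B27 with 2i. Because the genes were selected on these rises, their fold changes in any comparison with a 2i culture are given below as a description without a test. All 5 were among the 15287 genes tested, those that reached 10 counts in 2 or more libraries. Cd3g, Sash3 and Atp6v1b1 passed that filter through the 2i cultures alone.

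ESCs of the N33 line, labelled with the strain C57BL/6, were sequenced as 2 biological replicates per condition, so all values come from 1 line. All cultures contained LIF at 1000 U/ml, the cytokine that sustains self-renewal. The −F cultures grew in medium with 20% fetal bovine serum on gelatin, without feeders. The F cultures grew in the same serum medium on feeders, which were mitomycin C-treated mouse embryonic fibroblasts (MEFs). The F2i cultures had serum, feeders and 2i. The NB2i cultures had 2i in N2B27, a defined medium without serum, on poly-L-ornithine and laminin without feeders. 2i consisted of the Gsk3β inhibitor CHIR99021 at 3 µM and the Mek inhibitor PD0325901 at 1 µM in N2B27, and its concentrations with serum and feeders were not stated separately. ESCs grown on feeders were separated from them by adherence before RNA was extracted. F2i against F therefore compared cultures that differed in 2i. NB2i against −F differed in 2i, serum, medium and coating, and NB2i against F2i differed in serum, medium, coating and feeders, and in both the part of each cannot be told apart.

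Mek inhibition blocks the kinase step that activates Erk, a pathway that moves ESCs towards differentiation. Gsk3β inhibition stabilises β-catenin, which relieves repression of pluripotency genes by Tcf7l1. ESCs kept in 2i are held in a state known as the ground state, with low DNA methylation and few lineage transcripts in defined medium. None of the 5 genes is known as a pluripotency factor. Cd3g encodes the γ chain of CD3, the signalling part of the T cell receptor. Pzp encodes pregnancy zone protein, a secreted protease inhibitor of the α2-macroglobulin family. Mal encodes a proteolipid of membrane rafts in T cells, epithelia and myelin. Sash3 encodes an adaptor protein of lymphocytes with SH3 and SAM domains. Atp6v1b1 encodes the B1 subunit of the vacuolar proton pump (V-ATPase), which is known from intercalated cells of the kidney and from the inner ear.

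The 8 libraries held 20129641 to 20664488 expected counts, with a median of 20438563. Expected counts are the read numbers that RSEM assigns to a gene, and FPKM is that number scaled by transcript length and by the depth of the library. All 7 ESC markers were expressed in every library, with summed levels of 1253 to 1966 FPKM. Of 10 genes that respond to Mek and Erk, 6 were lower in F2i than in F and 7 were lower in NB2i than in −F, and none was higher. Of 10 β-catenin responders, 3 were higher and 1 lower in F2i, and 4 were higher and 2 lower in NB2i. Their medians of the log2 change were −0.05 in F2i against F and −0.02 in NB2i against −F. Over all genes tested, 6.44% were higher and 7.00% lower in F2i against F, and 11.1% and 16.1% in NB2i against −F. Fibroblast transcripts differed between the cultures. The 10 fibroblast markers summed to 104.1 to 107.4 FPKM in −F, 355.2 to 374.2 in F, 820.2 to 846.1 in F2i and 336.1 to 360.1 in NB2i. In NB2i, Fn1 alone gave 334.2 to 357.9 of that sum, and Postn, Dcn and Lum were at 0 in both libraries. In such bulk libraries, more cells of a type and more RNA per cell cannot be told apart.

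The 250 bases before the RefSeq start site of each gene are printed because all 5 genes were raised in NB2i, with every CG dinucleotide in capitals. The sequences are from RefSeq on GRCm38.p6, which is the mm10 build used by the authors, and are written 5′ to 3′ on the strand of the gene. Cd3g is at chr9:44980432-44980681 on the minus strand, Pzp at chr6:128526721-128526970 on the minus strand, Mal at chr2:127656696-127656945 on the minus strand, Sash3 at chrX:48146186-48146435 on the plus strand and Atp6v1b1 at chr6:83742767-83743016 on the plus strand. GENCODE, which gives the gene positions below, starts Atp6v1b1 further upstream, at 83742990, so the end of that window, but not position −41 given below, lies within its gene model.
Cd3g: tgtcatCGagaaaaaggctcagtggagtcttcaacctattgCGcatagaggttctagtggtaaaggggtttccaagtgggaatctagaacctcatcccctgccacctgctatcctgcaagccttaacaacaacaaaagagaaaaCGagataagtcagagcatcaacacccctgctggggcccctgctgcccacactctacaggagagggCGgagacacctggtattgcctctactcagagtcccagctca
Pzp: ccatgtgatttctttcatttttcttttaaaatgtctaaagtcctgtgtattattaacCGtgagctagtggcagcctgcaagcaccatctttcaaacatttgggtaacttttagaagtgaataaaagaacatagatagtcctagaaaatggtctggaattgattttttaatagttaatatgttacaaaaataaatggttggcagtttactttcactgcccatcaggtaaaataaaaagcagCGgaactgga
Mal: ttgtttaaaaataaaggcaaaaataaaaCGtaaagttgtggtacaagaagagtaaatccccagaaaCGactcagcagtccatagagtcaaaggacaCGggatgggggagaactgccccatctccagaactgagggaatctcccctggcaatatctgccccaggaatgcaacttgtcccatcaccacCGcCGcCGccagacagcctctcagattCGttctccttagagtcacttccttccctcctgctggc
Sash3: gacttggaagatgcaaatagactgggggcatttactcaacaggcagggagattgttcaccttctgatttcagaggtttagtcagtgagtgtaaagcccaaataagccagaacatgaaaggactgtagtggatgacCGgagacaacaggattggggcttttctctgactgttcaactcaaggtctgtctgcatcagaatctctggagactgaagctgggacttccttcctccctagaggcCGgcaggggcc
Atp6v1b1: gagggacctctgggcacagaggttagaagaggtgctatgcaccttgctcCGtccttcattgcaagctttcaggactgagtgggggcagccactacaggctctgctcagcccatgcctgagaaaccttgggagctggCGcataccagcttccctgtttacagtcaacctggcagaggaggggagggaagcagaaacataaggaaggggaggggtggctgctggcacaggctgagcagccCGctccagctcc

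The windows held 4 CG dinucleotides for Cd3g, 2 for Pzp, 7 for Mal, 2 for Sash3 and 3 for Atp6v1b1. The ratio of observed to expected CG was 0.242 for Cd3g and 0.286 for Pzp, above 35.7% and 41.2% of the 32851 promoters in the same table. The ratio was 0.459 for Mal, above 56.7% of promoters. It was 0.133 for Sash3 and 0.137 for Atp6v1b1, above 19.8% and 20.4% of promoters. Each window was searched on both strands for 6 short motifs. The TCF/LEF core CTTTGA occurred in Mal alone, 164 bases before the start (position −164), and in 13.8% of all promoters. The ESRRB core TCAAGG occurred in Sash3 alone (position −75) and in 12.5% of all promoters. The KLF core CACCC occurred in Cd3g (position −85) and Atp6v1b1 (position −41) and in 52.0% of all promoters. The STAT motif TTCNNNGAA, the E-box CACGTG and the TATA box TATAAA, found in 7.02%, 6.02% and 12.4% of promoters, matched none of the 5 windows. No window held more than 1 match, so no matches overlapped. The matches describe letters only.

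Cd3g was the clearest case of a gene that appeared with 2i in both media. Cd3g (Entrez 12502) lies on mm10 chromosome 9 at 44969572 to 44980431, minus strand. Its expected counts were 1 and 0 in −F, 0 and 0 in F, 43 and 45 in F2i, and 64 and 65 in NB2i. Both 2i groups lay far above the 4 libraries without 2i, and NB2i lay above F2i without overlap. Its mean level was 0.025 ± 0.035 FPKM in −F (SD, n = 2), 0 in F, 2.17 ± 0.050 in F2i and 3.12 ± 0.050 in NB2i. With 88 counts in F2i and none in F, where 3 counts over the group were taken as the floor, Cd3g was at least 30.35-fold higher in F2i. Its fitted log2 change was the third highest of the 15287 genes in that comparison, a rank that depends on the prior count given to a group at 0. Against −F, which had 1 count, NB2i was 134.1-fold higher (95% counting interval 23.65 to 5338). Between the 2i cultures NB2i was 1.45-fold higher (1.09 to 1.92; log2 change 0.53 ± 0.22 SE). Intervals and floors cover counting error only. Beside the shares over all genes given above, 5 of 10 fibroblast markers also rose from F to F2i. From −F to NB2i, 2 of them (Pdgfrb and Fn1) rose and 5 fell. The part of fibroblast transcripts in the values of Cd3g was not tested.

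Pzp also rose in both 2i cultures, but from a low level that was already present without 2i. Pzp (Entrez 11287) lies on chromosome 6 at 128483567 to 128526720, minus strand. Its expected counts were 14.27 and 12.22 in −F, 8.3 and 17 in F, 78.27 and 68.35 in F2i, and 53.27 and 65.44 in NB2i. The lowest 2i library had over 3 times the counts of the highest library without 2i, and the NB2i libraries lay just under those of F2i. Mean levels were 0.140 ± 0.014 FPKM in −F, 0.135 ± 0.064 in F, 0.765 ± 0.078 in F2i and 0.610 ± 0.085 in NB2i. Pzp was 6.08-fold higher in F2i than in F (3.96 to 9.71; log2 change 2.58 ± 0.29 SE). It was 4.76-fold higher in NB2i than in −F (3.09 to 7.58; log2 change 2.23 ± 0.29 SE). The ratio of NB2i to F2i was 0.799 (0.622 to 1.02), so the difference between the 2i cultures was within counting error. The F libraries decided part of the first value, as the log2 change in F2i was 2.15 without F replicate 1 and 3.22 without F replicate 2. Pzp counts were fractional in 7 of 8 libraries, and 4.47% of the 50-base words of its transcript also occur in the antisense gene Gm10069, so that reads there may be assigned to either. The transcripts of the other 4 genes shared no 50-base word with another gene, and their counts were whole.

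Mal had the highest level of the genes that rose mainly in NB2i. Mal (Entrez 17153) lies on chromosome 2 at 127633226 to 127656695, minus strand. Its expected counts were 16 and 18 in −F, 8 and 6 in F, 8 and 6 in F2i, and 366 and 351 in NB2i. The F and F2i libraries held the same counts, and both NB2i libraries lay far above all others. Mean levels were 0.295 ± 0.021 FPKM in −F, 0.130 ± 0.028 in F, 0.125 ± 0.021 in F2i and 6.21 ± 0.15 in NB2i. The ratio of F2i to F was 1.03 (0.457 to 2.34), an interval that spans a change of over 2-fold in either direction. In NB2i Mal was 21.9-fold higher than in −F (15.5 to 31.9; log2 change 4.44 ± 0.16 SE). It was 50.6-fold higher than in F2i (29.9 to 92.9; log2 change 5.64 ± 0.20 SE), the seventh highest log2 change of that comparison. At 6.21 FPKM, Mal in NB2i was close to the median of the tested genes, 6.80 FPKM. RSEM weighted its isoforms to a length of 2624 bases in both F libraries and 2792 bases in the other 6, which moves FPKM but not counts.

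Sash3 was nearly silent outside NB2i. Sash3 (Entrez 74131) lies on chromosome X at 48146436 to 48161565, plus strand. Its expected counts were 0 and 0 in −F, 0 and 1 in F, 3 and 2 in F2i, and 90 and 99 in NB2i. Both F2i libraries were above the F libraries by 1 to 3 counts, and both NB2i libraries were far above all others. Mean levels were 0 FPKM in −F, 0.010 ± 0.014 in F, 0.050 ± 0.014 in F2i and 1.70 ± 0.12 in NB2i. Sash3 was at least 65.5-fold higher in NB2i than in −F, where no count was seen and 3 counts were taken as the floor. It was 37.3-fold higher in NB2i than in F2i (15.7 to 116; log2 change 5.16 ± 0.38 SE). With 5 counts against 1, the ratio of F2i to F was 5.17 with an interval of 0.579 to 244.7, so a rise in F2i was not detectable at this depth.

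Atp6v1b1 followed the same order at lower precision. Atp6v1b1 (Entrez 110935) lies on chromosome 6 at 83742990 to 83758855, plus strand. Its expected counts were 1 and 0 in −F, 0 and 0 in F, 3 and 2 in F2i, and 53 and 28 in NB2i. The NB2i libraries differed from each other more than those of any other of the 5 genes, but both lay far above the rest. Mean levels were 0.015 ± 0.021 FPKM in −F, 0 in F, 0.065 ± 0.021 in F2i and 1.01 ± 0.44 in NB2i. NB2i was 84.2-fold higher than −F, which had 1 count (14.7 to 3367), and 16.0-fold higher than F2i (6.58 to 50.6; log2 change 3.94 ± 0.54 SE). With 5 counts in F2i and none in F, the lower 95% counting limit of the ratio was 0.948, so a rise in F2i was not detectable at this depth.

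**Figure D1:**
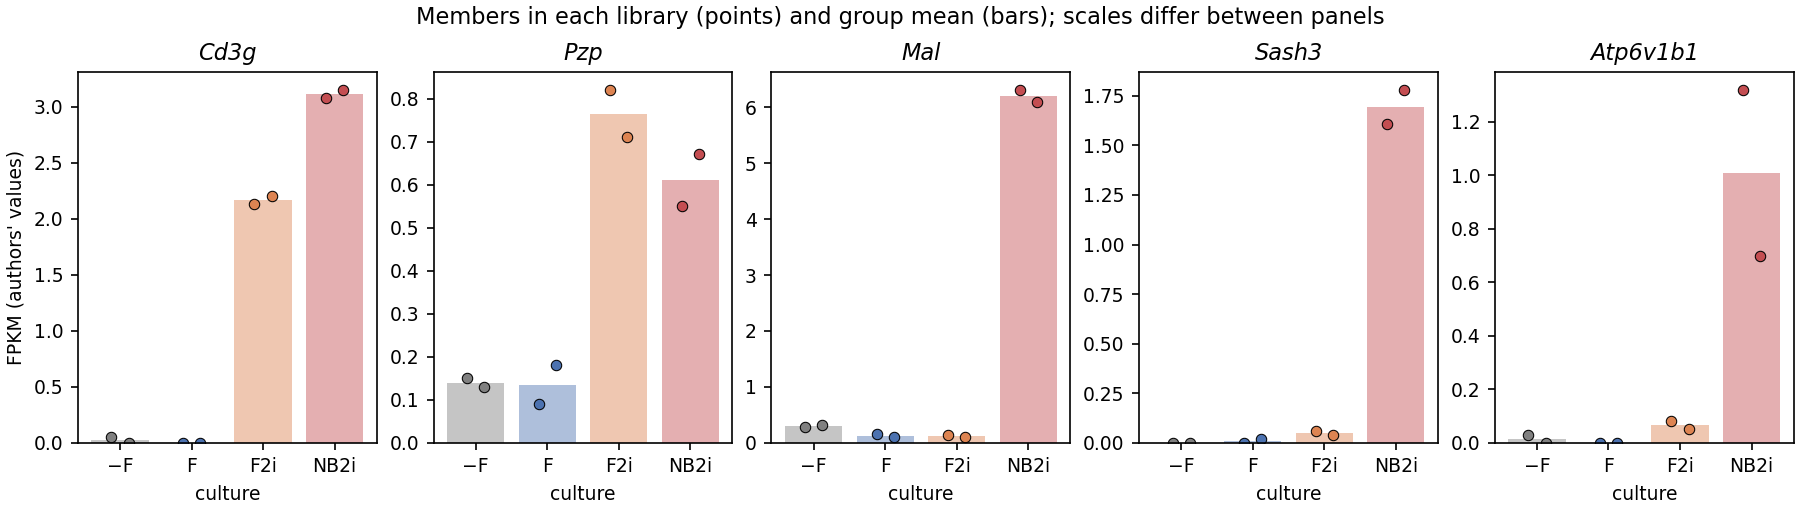
Level in FPKM (vertical axes, which differ between panels) of the 5 genes in the 4 cultures. Points are the 2 libraries of a culture and bars their mean. Cd3g and Pzp are raised in F2i and NB2i, whereas Mal, Sash3 and Atp6v1b1 reach means of 6.21, 1.70 and 1.01 FPKM in NB2i and have means of 0.125, 0.050 and 0.065 FPKM in F2i.

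In F2i against F, Cd3g and Pzp were among the genes called higher (adjusted p under 0.05 and at least 2-fold with edgeR), which made up 6.44% of the 15287 genes tested (7.00% were called lower). In NB2i against −F all 5 were among those called higher, which made up 11.1% of genes (16.1% lower). In NB2i against F2i, Mal, Sash3 and Atp6v1b1 were among those called higher, 6.01% of genes (13.3% lower), and Cd3g and Pzp were not called. The genes were picked on these comparisons, so nothing is read from these counts. Of the 985 genes higher in F2i than in F, 611 (62.0%) were also higher in NB2i than in −F, and these made up 36.0% of the 1696 genes higher there. The pair of comparisons share no library.

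**Figure D2:**
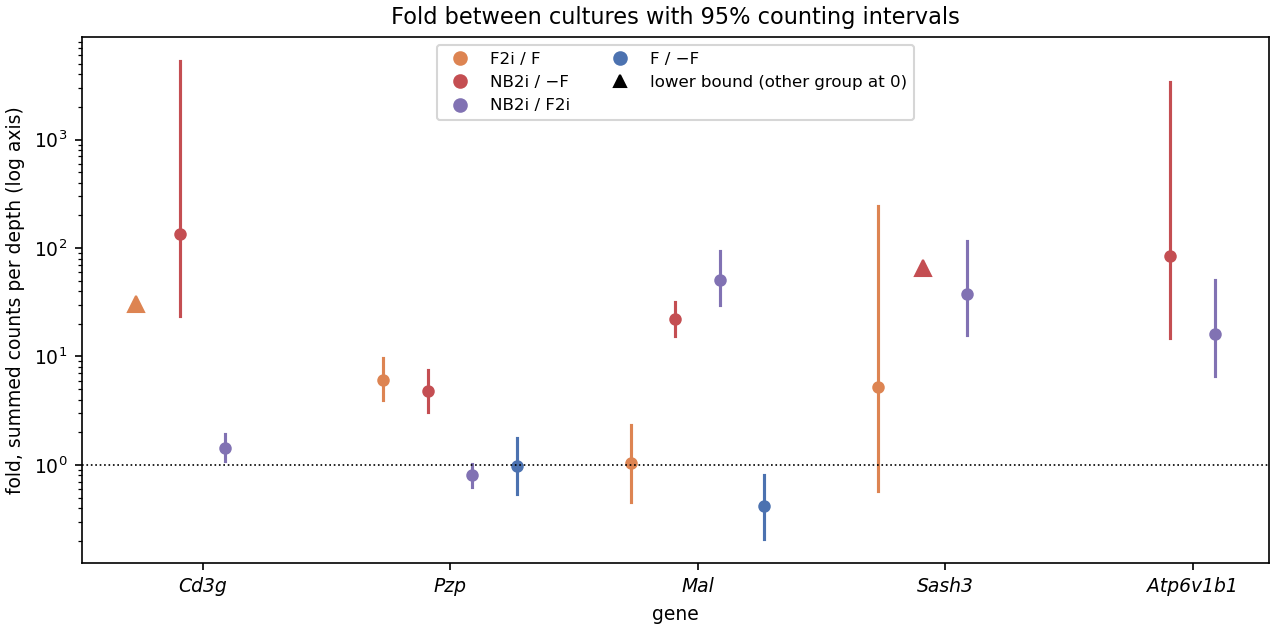
Fold between cultures (log axis) from summed counts scaled by depth for the 5 genes. Points carry 95% counting intervals, triangles are lower bounds against a culture without counts (shown where the 95% interval excluded 1), and the dotted line marks no change. The F2i over F value is 6.08 for Pzp and 1.03 for Mal, whereas NB2i over F2i is 50.6 for Mal and 0.799 for Pzp.

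Only F against −F contained no 2i culture, and there the genes could be tested. Mal was lower on feeders, with 14 counts in F and 34 in −F, a ratio of 0.419 (0.208 to 0.802). Its log2 change was −1.24 ± 0.38 (SE, adjusted p = 0.0134 with edgeR's quasi-likelihood test and Benjamini-Hochberg adjustment over all genes), and both −F libraries were above both F libraries. The call rested on few counts, as the adjusted p from edgeR was 0.0694 without −F replicate 2 and 0.115 without F replicate 2. In this comparison 1.65% of all genes were called lower and 5.59% higher. Pzp was not called, with a log2 change of −0.03 ± 0.41 SE (edgeR adjusted p = 0.964) and a ratio of 0.979 (0.542 to 1.76). Cd3g, Sash3 and Atp6v1b1 had at most 1 count in each of these 4 libraries, and a difference was not detectable at this depth.

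Set in order of level in NB2i, Mal came first, then Cd3g, Sash3, Atp6v1b1 and Pzp. Per transcript length, Mal at 6.21 FPKM was above 48.2% of the tested genes in NB2i, Cd3g above 37.8%, Sash3 above 30.7%, Atp6v1b1 above 25.5% and Pzp above 20.6%. Libraries of neighbours in that order did not overlap, but Atp6v1b1 (1.01 ± 0.44 FPKM) and Pzp (0.610 ± 0.085 FPKM) differed by less than the SD of Atp6v1b1. In F2i, Cd3g was above 32.1% of the tested genes and Pzp above 19.3%. The genes thus stayed at or under the middle of the range of expression in the cultures where they were highest.

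The 5 genes were set beside all genes that were off without 2i. With 0.5 FPKM as the limit in every library, 6239 genes were below it in all 4 libraries without 2i. Of these, 111 (1.78%) were above it in all 4 libraries with 2i, including Cd3g and Pzp. A further 137 (2.20%) were above it in NB2i alone, including Mal, Sash3 and Atp6v1b1, and 92 (1.47%) in F2i alone, with none of the 5. The limit was chosen with these values known. With 1 FPKM as the limit Cd3g stayed among genes on in both cultures and Mal and Sash3 among those on in NB2i alone, while Pzp and Atp6v1b1 reached it in both libraries of neither culture. With 0.3 FPKM, Mal was no longer off without 2i, as −F replicate 2 was at 0.31 FPKM.

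The genes next to each of the 5 were examined, 3 protein-coding genes on either side. These 30 genes were not used to pick the 5, and 26 of them had enough counts for a test. Of these, 5 were higher and 1 lower in F2i against F, and in NB2i against −F, 7 were higher and 3 lower. Over all genes 6.44% were higher and 7.00% lower in the former and 11.1% higher and 16.1% lower in the latter, so the share of lower neighbours was not above that of all genes. The tested neighbours had medians of the log2 change of 0.16 and 0.49 beside −0.0028 and 0.01 over all genes. In NB2i against F2i, 3 were higher and 2 lower, beside 6.01% and 13.3% of all genes. In F against −F, 2 were higher (Nrip2 and Apln) and 2 lower, beside 5.59% and 1.65% of all genes. The 2 lower were Prom2 (log2 change −1.45 ± 0.26, edgeR adjusted p = 0.000107) and Mall (−1.63 ± 0.48, edgeR adjusted p = 0.00995). Both lie beside Mal, which was also lower there. DESeq2 called 2 neighbours in that comparison.

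Cd3g had 3 neighbours that were higher in both 2i cultures. Cd3d, which encodes the δ chain of CD3, starts 1.4 kb away on the opposite strand. Its levels were 0.09 and 0.17 FPKM in −F, 0.13 and 0 in F, 1.35 and 1.20 in F2i, and 1.13 and 1.34 in NB2i. Cd3d was higher in F2i than in F by a log2 change of 4.44 ± 0.57 (SE, edgeR adjusted p = 9.2e-07) and higher in NB2i than in −F by 3.27 ± 0.48 (edgeR adjusted p = 3e-06). The 4 libraries with 2i did not overlap the 4 without. The size of the Cd3d change rested on single F and −F libraries with few counts. In F2i it was 8.13 without F replicate 1 and 3.50 without F replicate 2. In NB2i it was 2.76 without −F replicate 1 and 4.04 without −F replicate 2. Cd3e, which encodes the ε chain, lies 18.3 kb away and was at 0.62 and 0.72 FPKM in −F, 0.80 and 0.58 in F, 3.63 and 3.79 in F2i, and 1.70 and 1.47 in NB2i. It was higher by 2.46 ± 0.22 in F2i (edgeR adjusted p = 3.3e-09) and by 1.30 ± 0.26 in NB2i (edgeR adjusted p = 1e-04). Cd3e was lower in NB2i than in F2i (log2 change −1.22 ± 0.18, edgeR adjusted p = 6.1e-06), whereas Cd3d differed by −0.04 ± 0.30 (edgeR adjusted p = 0.913). Mpzl2, an adhesion molecule gene 59.4 kb away, was higher in both, by 1.10 ± 0.05 in F2i and 1.71 ± 0.05 in NB2i. On the other side of Cd3g, Ube4a, Atp5l and Kmt2a were not called at the 2-fold limit in any of the 4 comparisons. Ube4a rose by less, by 0.31 ± 0.07 in F2i against F (edgeR adjusted p = 0.00049) and by 0.60 ± 0.07 in NB2i against −F (edgeR adjusted p = 4e-08). Atp5l and Kmt2a changed by −0.19 ± 0.05 and −0.28 ± 0.05 in NB2i against −F.

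Atp6v1b1 also lay beside genes that were higher in NB2i. Vax2, a homeobox gene of the eye, lies 4.7 kb away and was at 0.36 and 0.28 FPKM in −F, 0.81 and 0.32 in F, 1.92 and 1.77 in F2i, and 13.2 and 12.9 in NB2i. It was higher by 5.39 ± 0.22 in NB2i against −F (edgeR adjusted p = 2.1e-15), by 1.74 ± 0.29 in F2i against F (edgeR adjusted p = 3.1e-05) and by 2.82 ± 0.16 in NB2i against F2i (edgeR adjusted p = 9.8e-13). The change of Vax2 in F2i was 2.55 without F replicate 1 and 1.23 without F replicate 2. Ankrd53, 3.8 kb away on the other side, was higher in NB2i than in −F by 2.02 ± 0.53 (edgeR adjusted p = 0.0019), and Nagk, a sugar kinase gene at 36.1 kb, by 1.62 ± 0.13 (edgeR adjusted p = 3e-10). Ankrd53 was also higher in NB2i than in F2i, by 1.78 ± 0.52 (edgeR adjusted p = 0.0052), a call lost with DESeq2 (adjusted p = 0.0643) and without F2i replicate 1 (edgeR adjusted p = 0.06).

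Around Pzp, Mal and Sash3, Bcorl1 was the only tested neighbour called higher in F2i against F or in NB2i against −F. None of the 4 tested neighbours of Pzp was called higher in a 2i culture. Itfg2 rose by less than 2-fold, by 0.28 ± 0.09 in F2i against F (edgeR adjusted p = 0.0114) and by 0.53 ± 0.09 in NB2i against −F (edgeR adjusted p = 1.6e-05). Clec2h was lower in NB2i than in −F by −1.12, a call lost with DESeq2. Beside Mal, Prom2 was lower in F2i than in F (log2 change −4.04 ± 0.58, edgeR adjusted p = 4.3e-06) and in NB2i than in −F (−6.04 ± 0.50, edgeR adjusted p = 3.8e-10), a value that was −9.22 without NB2i replicate 1 and −5.11 without NB2i replicate 2. Mall, a relative of Mal at 47.7 kb, was lower in NB2i by −1.75, a call lost with DESeq2 (adjusted p = 0.0627). Zfp661, also beside Mal, was higher in NB2i than in F2i by 1.10 ± 0.12 (edgeR adjusted p = 3.7e-08). Against −F it rose by less than 2-fold in NB2i, by 0.454 ± 0.105 (edgeR adjusted p = 0.00058). Apln, beside Sash3, was lower in NB2i than in F2i (−1.05 ± 0.28, edgeR adjusted p = 0.0024). Beside Sash3, Bcorl1 at 179.8 kb was higher by 1.42 ± 0.09 in F2i and by 1.21 ± 0.10 in NB2i. Zdhhc9 and Utp14a, which are nearer, were not called at the 2-fold limit in those comparisons. Zdhhc9 rose by less, by 0.32 ± 0.09 in F2i (edgeR adjusted p = 0.0039) and 0.53 ± 0.09 in NB2i (edgeR adjusted p = 2.3e-05). Utp14a changed by −0.14 ± 0.05 and 0.24 ± 0.05.

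**Figure D3:**
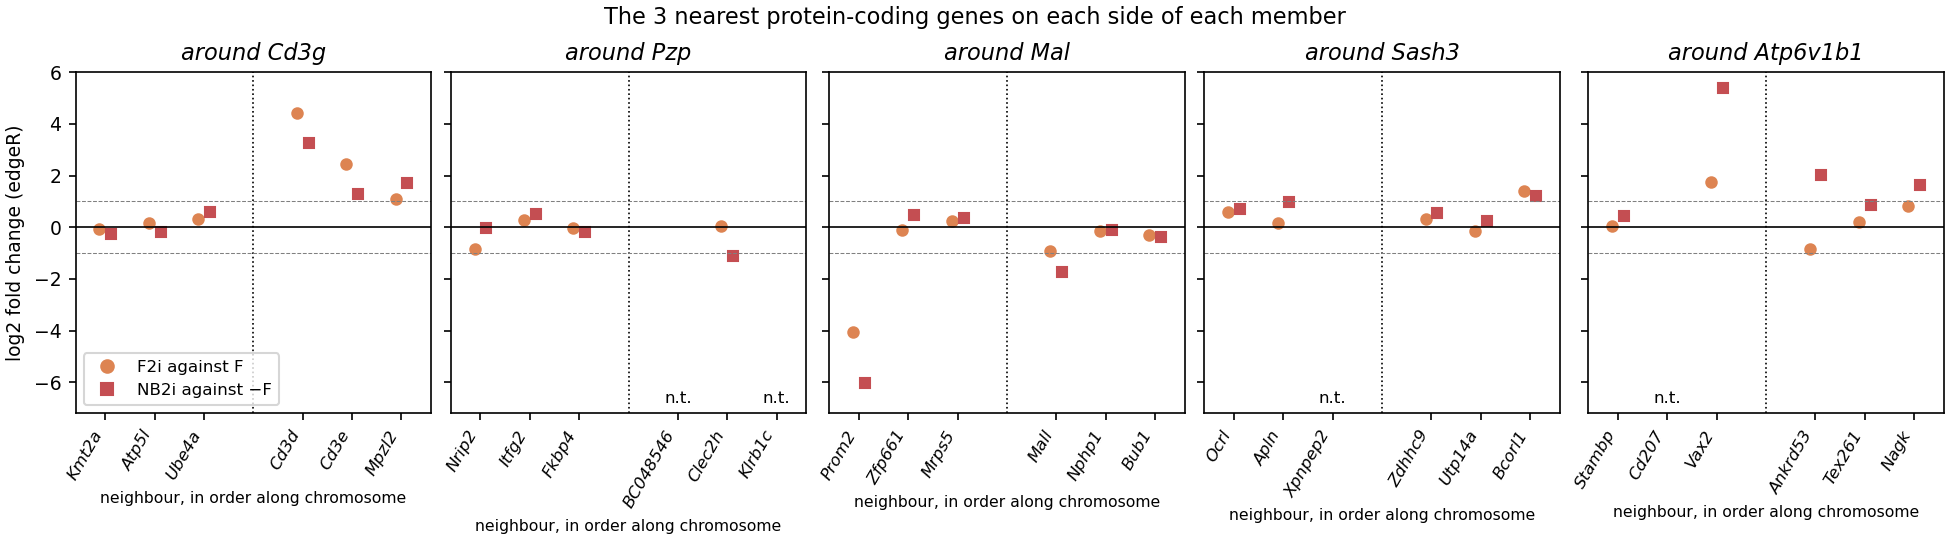
Log2 fold change (vertical axis) of the 3 nearest protein-coding genes on each side of each of the 5 genes, in order along the chromosome, in F2i against F (circles) and NB2i against −F (squares). Dashed lines mark a 2-fold change, the dotted line the position of the gene itself, and n.t. a gene with too few counts to test. Cd3d and Cd3e stand out beside Cd3g and Vax2 beside Atp6v1b1, whereas no neighbour of Pzp is above 2-fold.

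Relatives of each gene by function or family were then counted. Of 12 partners of the T cell receptor, 8 were tested. In F2i against F, Cd3d, Cd3e and Cd4 were higher and Cd2 was lower, and in NB2i against −F, Cd3d, Cd3e and Cd4 were higher and Lat was lower. These counts stand beside 6.44% higher and 7.00% lower over all genes in F2i against F, and 11.1% and 16.1% in NB2i against −F. The medians of the log2 change over the 8 were 0.20 and 0.17. Cd4, a coreceptor, was at 0.06 to 0.11 FPKM without 2i, 0.18 and 0.36 in F2i, and 0.36 and 0.52 in NB2i, and its call in F2i was lost without F2i replicate 2 (edgeR adjusted p = 0.19) or F replicate 2 (edgeR adjusted p = 0.0819). Lat, an adaptor downstream of the receptor, fell from 4.13 and 3.71 FPKM in −F to 0.38 and 0.65 in NB2i (log2 change −2.84 ± 0.23, edgeR adjusted p = 3.9e-10). Cd247, the ζ chain that completes the receptor complex, was at 0 to 0.27 FPKM in all libraries and too low to test. Besides Cd3d and Cd3e, Cd4 was thus the only tested partner called higher in either comparison.

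Leukocyte markers were read beside Cd3g, Mal and Sash3. Ptprc, the pan-leukocyte marker CD45, was at 0 to 0.08 FPKM and Cd53 at 0 to 0.28 FPKM in all libraries, with Cd53 at most 0.05 in the 2i cultures. Of 10 markers, 7 were tested. In F2i against F, 3 were higher (Laptm5, Spi1 and Lcp1) and Coro1a was lower, beside 6.44% higher and 7.00% lower over all genes. In NB2i against −F, 4 were higher (Laptm5, Was, Spi1 and Lcp1) and 2 lower (Coro1a and Ikzf1), beside 11.1% and 16.1% over all genes. The 10 markers summed to 36.7 to 38.5 FPKM in −F, 38.2 to 38.3 in F, 85.4 to 91.3 in F2i and 172.9 to 175.4 in NB2i. Laptm5 made up 156.5 and 158.9 of the sum in NB2i. Spi1, a transcription factor of blood cells, was at 0.17 to 0.40 FPKM without 2i, 1.77 and 2.08 in F2i, and 2.25 and 2.90 in NB2i. Coro1a, a leukocyte actin regulator, went the other way, from 5.60 and 5.80 FPKM in −F to 0.49 and 0.38 in NB2i. The part of leukocyte transcripts in the values of Cd3g, Mal and Sash3 was not tested.

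A close relative of Pzp was also higher in both 2i cultures. A2m, which encodes α2-macroglobulin, was at 0.50 and 0.60 FPKM in −F, 1.73 and 1.58 in F, 10.65 and 11.08 in F2i, and 3.78 and 3.68 in NB2i. It was higher by 2.75 ± 0.08 in F2i against F (edgeR adjusted p = 2.8e-17) and by 2.83 ± 0.12 in NB2i against −F (edgeR adjusted p = 2.6e-15). A2m was also higher in F than in −F, where Pzp was not called, by 1.62 ± 0.14 (edgeR adjusted p = 5.4e-09), and was lower in NB2i than in F2i by −1.54 ± 0.07 (edgeR adjusted p = 2.8e-14). Of 8 genes in the family list, 6 were tested, of which 3 were higher in F2i against F (A2m, C4b and Hc). In NB2i against −F, 2 were higher (A2m and Hc) and 2 lower (Cd109 and C3). The calls of C4b and C3 were lost with DESeq2. Over all genes, 6.44% were higher in F2i against F, and 11.1% were higher and 16.1% lower in NB2i against −F. The murinoglobulin gene Mug2 was at 0 to 0.01 FPKM in all libraries. The fibroblast markers, given above, rose from F to F2i as A2m and Pzp did, with 5 of 10 called higher, and their part in these values was not tested. Of 8 listed hepatocyte markers, 3 were tested and none was higher in a 2i culture, and Fga, Fgb and Ttr were at 0 to 0.06 FPKM in all libraries.

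**Figure D4:**
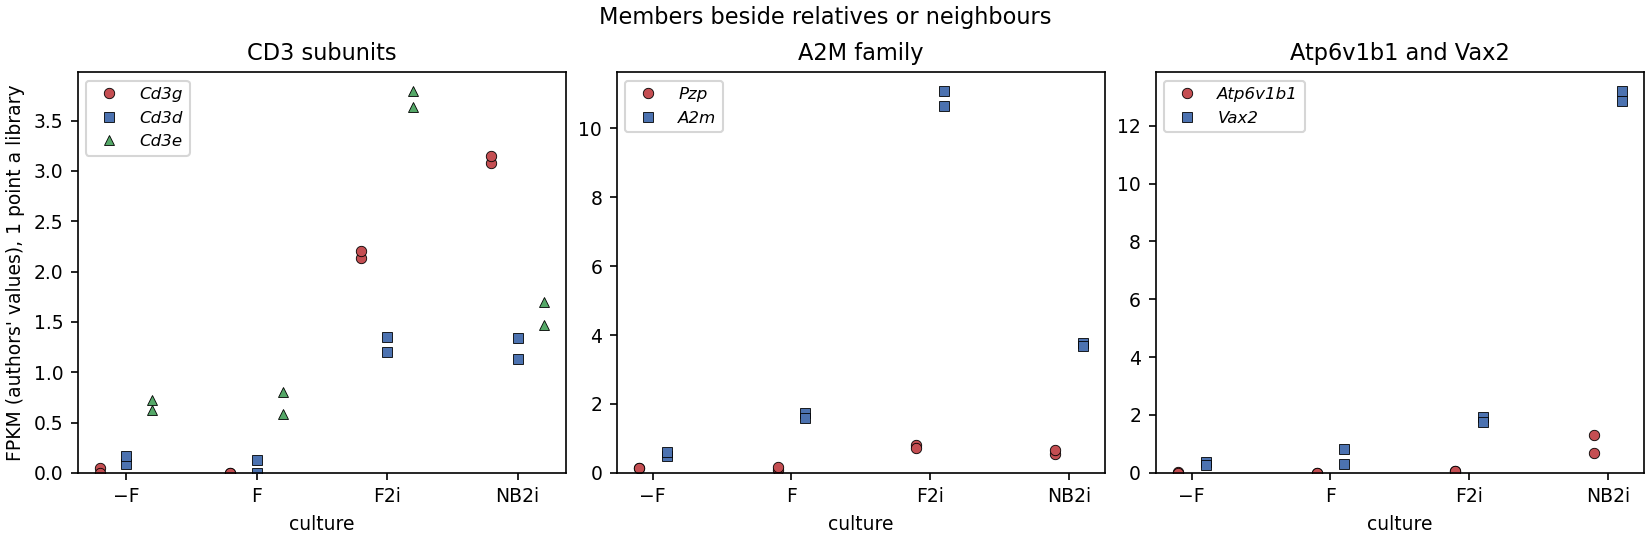
Level in FPKM (vertical axes, which differ between panels) of Cd3g beside Cd3d and Cd3e, of Pzp beside A2m, and of Atp6v1b1 beside its neighbour Vax2, with 1 point per library. All 3 CD3 genes are higher in F2i and NB2i, A2m reaches 10.65 and 11.08 in F2i, and Vax2 reaches 13.2 and 12.9 in NB2i.

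Most of the family of Mal was not called higher in the comparisons where Mal was. Of 15 genes of the MAL and MARVEL family, 14 were tested. Cmtm7 was higher and Mal2 and Pllp were lower in F2i against F, beside 6.44% higher and 7.00% lower over all genes. The call of Pllp was lost with DESeq2. In NB2i against −F, 2 were higher (Cmtm3 and Cmtm7) and 6 lower, beside 11.1% higher and 16.1% lower over all genes. The family had a median log2 change of −0.95 there, beside 0.01 over all genes. In NB2i against F2i, 2 were higher (Mal2 and Marveld3) and 1 lower (Cmtm8), beside 6.01% and 13.3% over all genes. The family median was 0.33 in that comparison, beside 0.02 over all genes. Mal2, which acts in epithelial transport, fell from 2.53 and 2.67 FPKM in −F to 0.19 and 0.21 in NB2i (log2 change −3.62 ± 0.23, edgeR adjusted p = 5.4e-12). It was at 0.12 and 0.05 FPKM in F2i, below NB2i by a log2 change of 1.16 ± 0.48 (edgeR adjusted p = 0.0385). Cmtm7 rose from 10.8 and 9.86 FPKM in −F to 70.9 and 68.5 in NB2i (log2 change 2.82 ± 0.07, edgeR adjusted p = 9.3e-19) and was at 42.9 and 47.0 in F2i. Of 8 oligodendrocyte markers, 2 were higher in NB2i than in −F (Mag and Mog) and 2 were lower (Mobp and Olig1). Over all genes 11.1% were higher and 16.1% lower. Mag was at 0.84 and 0.64 FPKM in NB2i and at most 0.20 elsewhere. Olig1 went the other way, from 47.7 and 44.4 FPKM in −F to 16.1 and 16.7 in NB2i.

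Of 24 V-ATPase subunits and accessory proteins, 20 were tested, and 3 were higher in NB2i than in −F by at least 2-fold, beside 11.1% of all genes. Without the fold limit, 17 of the 20 were higher and 2 lower at an edgeR adjusted p under 0.05, beside 36.9% higher and 35.4% lower over all genes. The 3 were Atp6v1a (log2 change 1.50 ± 0.04, edgeR adjusted p = 4.8e-18), the catalytic subunit, and the accessory proteins Atp6ap1 (1.32 ± 0.05) and Atp6ap2 (1.47 ± 0.05). Their levels rose from 36.4 and 37.6 FPKM to 99.4 and 100.8 for Atp6v1a. In F2i against F, none of the 20 was called higher at the 2-fold limit, but these 3 rose by less. Their log2 changes there were 0.92 ± 0.04 for Atp6v1a (edgeR adjusted p = 8.5e-14), 0.68 ± 0.05 for Atp6ap1 (2.2e-10) and 0.59 ± 0.05 for Atp6ap2 (3.3e-10). Atp6v1g2 was called lower in both, a call lost with DESeq2. The median log2 change of the 20 was 0.15 in F2i against F and 0.63 in NB2i against −F, beside −0.0028 and 0.01 over all genes. Atp6v1b2, the B subunit used by most cells, was at 60.2 to 66.3 FPKM in all libraries, with a log2 change of 0.13 ± 0.04 in NB2i. At 1.01 FPKM, Atp6v1b1 in NB2i stayed far below it. Foxi1, which defines intercalated cells, was at 0 in NB2i, −F and F, and at 0.08 and 0 FPKM in F2i. Of 7 intercalated cell markers, 3 were tested. In NB2i against −F, 2 (Slc4a1 and Aqp6) were lower, beside 16.1% over all genes, and none was higher. Atp6v0d2, too low to test with at most 5 counts in a library, was at 0.08 and 0.10 FPKM in NB2i. It was at 0.04 and 0.10 FPKM in F2i and at most 0.02 without 2i.

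Sash1, the one relative of Sash3 with values, was at 2.78 and 3.00 FPKM in −F, 4.91 and 5.00 in F, 10.12 and 9.41 in F2i, and 7.43 and 7.42 in NB2i. It was higher by 1.02 ± 0.06 in F2i against F (edgeR adjusted p = 3.3e-12) and by 1.43 ± 0.07 in NB2i against −F (edgeR adjusted p = 1.8e-14). Sash1 therefore rose in both 2i cultures, whereas Sash3 reached more than 3 counts per library in NB2i alone. The call of Sash1 in F2i lay near the 2-fold limit and was lost without F2i replicate 1, where its log2 change was 0.97.

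The genes whose pattern was most like each of the 5 were found by Pearson's r of log2(FPKM + 1) over the 8 libraries among 13026 genes. For Cd3g they were Nfic, Yes1 and Tmem192 (r of 0.998 for each). For Pzp they were Suz12, Gm20939 and Dock5 (r from 0.993 to 0.994). For Mal they were Tulp2, Ubap1l and Zadh2 (r from 0.996 to 0.997), for Sash3 Cttnbp2, H1f0 and Exph5 (r from 0.997 to 0.998), and for Atp6v1b1 Mrpl52, Zdhhc4 and Eif3f (r from 0.986 to 0.992). The 8 libraries form 4 groups, so high values are common, and r was over 0.95 with 658 genes for Cd3g, 204 for Pzp, 524 for Mal, 598 for Sash3 and 231 for Atp6v1b1. Pearson's r takes no account of level or of the size of a change. Suz12 was at 71.7 to 76.5 FPKM without 2i and 86.2 to 95.2 with it. Eif3f was at 185.2 to 192.1 FPKM outside NB2i and at 230.1 and 208.9 in NB2i. Exph5 was instead low without 2i, at 0.04 to 0.06 FPKM, and reached 1.48 and 1.42 in NB2i.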

How the data were processed

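Poly-A RNA of N33 ESCs was sequenced by the authors as single-end 50-base reads on a BGISEQ-500 and mapped to mm10 with Bowtie2 (version not given in the sources used here). The authors quantified genes with RSEM and deposited for each library the expected count, which is not normalized, and FPKM, which is scaled by transcript length and depth. Genes without a row in a library were taken as 0. FPKM was used for levels only.

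Rounded counts entered the quasi-likelihood test of edgeR 4.0.16 under R 4.3.3 (TMM factors of 0.9774 to 1.028, all 8 libraries in 1 fit, Benjamini-Hochberg adjustment). A gene was kept if it reached 10 counts in 2 or more libraries, which left 15287 of 20278. Called genes had an adjusted p under 0.05 and at least a 2-fold change. Standard errors come from the log2 change and its F value. The biological coefficient of variation was 3.254%, and 2 libraries against 2 cannot give an exact permutation p under 0.3333. Replicates are called biological, but nothing says how they were separated, so p-values measure the spread between these libraries. They differed by more than sampling noise (chi-square of 1.885 to 3.712 per degree of freedom).

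Folds of the 5 genes were ratios of summed counts over effective library sizes with exact Clopper-Pearson 95% intervals and a floor of 3 counts over a group. The 5 genes and all lists were chosen with earlier results of these data known. Named genes are the 5, their 3 nearest listed protein-coding genes on each side (GENCODE M21), and, from each list of relatives, close paralogs and up to 4 called genes with the largest change. Scripts were tested on simulated data. Alternatives were DESeq2 1.42.0, its size factors in edgeR, no filter on low counts, a replicate block, only the groups compared, an adjusted p under 0.01 and each replicate left out. After the data were seen, FPKM limits of 0.3 and 1 and the calls of named genes under every alternative were added, and calls in NB2i against −F without the fold limit.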

Additional observations from a re-analysis of the deposited data

How the results depend on the processing

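Genes lower in F than in −F numbered 252 with edgeR and 141 with DESeq2, and neighbour genes called in that comparison 4 and 2. All other counts of called genes stayed within 1.5 times under every alternative run. Leaving out 1 replicate gave 874 to 988 genes higher and 992 to 1060 lower in F2i against F, 1608 to 1702 and 2313 to 2443 in NB2i against −F, 832 to 932 and 1871 to 2038 in NB2i against F2i, and 762 to 847 and 190 to 255 in F against −F. Replicate numbers are shared between groups, but same-numbered libraries did not deviate together (mean r −0.0384, range −0.168 to 0.0801 over 11953 genes). With the replicate number as a block, 981 genes were higher and 1063 lower in F2i against F (985 and 1070 without the block), and no count moved by 1.5 times. Of the calls of named genes, Atp6v1g2 in NB2i against −F (adjusted p = 0.0552) and Cmtm8 in NB2i against F2i (adjusted p = 0.053) were lost under the block with edgeR. Over all alternatives, 945 of 1008 values of named genes kept their call, 56 had an adjusted p over the threshold, 7 fell under 2-fold and none changed direction. The fitted log2 change of Cd3g in NB2i against −F ran from 5.89 to 9.02 and that of Atp6v1b1 from 5.22 to 8.35, depending on which −F replicate was left out, since each rests on 1 count. That of Mal in NB2i against F2i ran from 5.44 to 5.86. That of Sash3 in F2i against F was 1.275 without F replicate 1 and 4.43 without F replicate 2. The cause of the other changes was not tested. At this depth, changes of Sash3 and Atp6v1b1 in F2i are limited by 5 counts each.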

Other observations

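Vav1, a leukocyte signalling gene, was at 0.26 to 0.55 FPKM in all 8 libraries. Lcp1, a leukocyte actin-bundling protein gene, was higher in both 2i cultures, at 0.89 to 1.34 FPKM without 2i, 2.70 and 3.21 in F2i and 8.68 and 8.45 in NB2i. Its log2 change was 3.15 ± 0.11 (SE) in NB2i against −F and 1.54 ± 0.09 in NB2i against F2i.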
